A study of Mus musculus with 12 samples.

Results

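The olfactory bulb (OB) of 2-month-old Tg2576 mice was compared with that of WT littermates of the same age. The 6 arrays, 3 Tg2576 and 3 WT, are those labelled 2 months among 12 arrays of the series, and each holds RNA from 1 female mouse. Tg2576 mice overexpress human amyloid precursor protein (hAPP) with the Swedish double mutation of familial Alzheimer's disease (AD) under the prion promoter, and both genotypes were on a C57BL/6/SJL background. The WT mice differ from them, by label, only in lacking the transgene, and no treatment is given for either group. Each value is a log2 intensity of an Affymetrix Mouse Clariom S probeset that the authors normalized by RMA, so that a difference of 1 is a change of 2-fold. The question was which genes and functions other than immediate early, leptomeningeal and ribosomal genes differ in the OB of these mice before plaques form.

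The OB is the first relay of smell. Axons of olfactory sensory neurons end on mitral and tufted cells in the glomeruli, and granule and periglomerular interneurons, which are replaced throughout life by migrating neuroblasts, shape the output through GABA. Olfactory deficits appear early in AD, and processing of APP by secretases in endosomes and in the secretory pathway releases the Aβ peptide.

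Markers of the OB were bright in these 6 mice. The mean log2 value was 13.13 for Meis2 and 12.23 for Gad1, both of granule cells, 11.57 for the neuroblast gene Dcx, 11.33 for Th of dopaminergic periglomerular cells and 11.13 for Eomes of mitral and tufted cells. The probeset of mouse App read 12.36, 12.37 and 12.34 in the Tg2576 mice and 12.34, 12.32 and 12.35 in the WT mice. These values overlapped (log2 fold change 0.03, SE 0.08). Whether the probes also detect the human transcript was not tested.

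Array medians lay between 8.24 and 8.27, and correlations between the 6 arrays from 0.985 to 0.994. The mean of 24 leptomeningeal markers was 8.79, 8.82 and 9.23 in Tg2576 replicates 1 to 3 and 8.26, 8.67 and 8.70 in WT replicates 1 to 3. It did not overlap between the groups, all 24 markers had a log2 fold change above 0 and their median was 0.34. The means of the microglial, Golgi and endosomal, glutathione, cytoskeletal, mitral and tufted, immediate early and neurotrophin and neuropeptide lists also did not overlap, whereas those of the other 49 of 57 lists did. WT replicate 3 stood apart from the other WT mice. Over the probesets called higher in Tg2576 mice, its median deviation from the mean of the 6 mice was -0.06, against -0.40 and -0.24 in WT replicates 1 and 2. Over those called lower it was 0.03, against 0.55 and 0.41. 

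A gene was called when the unadjusted p of limma was under 0.01 and the fold change above 1.3 (higher in Tg2576) or below 0.7 (lower). Of 22206 gene probesets, 89 were called higher, which is 0.401% of those tested, and 38 lower, which is 0.171%. These limits are unequal on the log2 scale, and with a lower limit of 0.769, the mirror of 1.3, there were 89 higher and 90 lower. The p limit alone was passed by 142 probesets (0.639%) with higher and 129 (0.581%) with lower values, and about 222 would pass it without any true difference. No probeset passed Benjamini-Hochberg adjustment in limma, where each of the 271 probesets past the p limit had an adjusted p of 0.762, and 1403 had an unadjusted p under 0.05. Groups that did not overlap were found for 2212 probesets (9.96%). Among the called ones the groups did not overlap in 74 of 89 higher and 29 of 38 lower. Every gene described below is therefore a candidate among values of this size, not a gene that passed adjustment. Without WT replicate 3 the counts were 392 higher and 196 lower, with 21 probesets at an adjusted p under 0.05 in limma. Without WT replicate 1 they were 32 and 19, and without Tg2576 replicate 2 they were 147 and 28. Without WT replicate 2 the lower calls numbered 24. When the mean of the leptomeningeal markers entered the fit as a covariate, 45 were called higher and 18 lower, of which 8 and 3 are among the calls above. It moved the log2 fold change of 19 of the 61 calls of named genes toward 0 by over 1.5 times, and these values are given where such a gene is described. That of Rgsl1 moved away from 0, from -0.66 to -0.99. Of the same 61 genes, 8 lay under the median of the negative control probesets on 4 or more of the 6 arrays (Slc27a2, Gdf10, Bpifa2, A2ml1, 9630028B13Rik, Olfr342, Olfr965 and Olfr745), so that their fold changes rest on values near background.

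Among calls with a symbol, immediate early genes account for 8 of the lower, leptomeningeal markers for 3 and cytosolic ribosomal proteins for 4 of the higher calls. Rpl12, Rpl23a and Rpl24, named only by the study's supplementary annotation, were called higher too. None of these is described further. Outside these lists, 15 genes per direction with the largest change and no overlap between groups are plotted by mouse below.

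**Figure D1:**
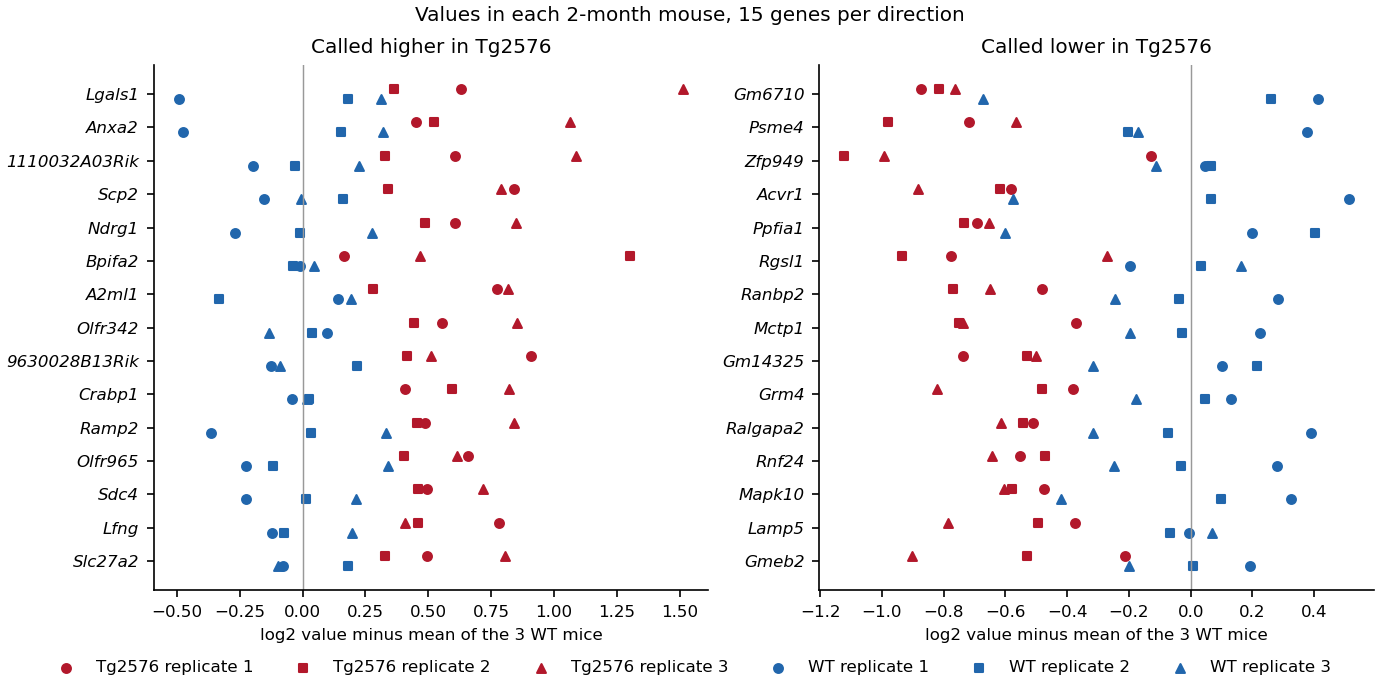
Log2 value of each 2-month mouse minus the mean of the 3 WT mice (x axis) for the 15 genes called higher and the 15 called lower with the largest change (y axis). Red symbols are Tg2576 and blue symbols WT mice, with circles, squares and triangles for replicates 1, 2 and 3. WT replicate 3 lies closest to the Tg2576 mice for Gm6710, Acvr1, Ppfia1 and Mapk10.

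Genes of inhibitory interneurons and of glutamate signalling were among those that fell. Of 18 measured granule cell markers, 2 were called lower (0.171% of all probesets were) and 11 lay below 0 (median -0.04, against 0.01 over all genes). Lamp5, a lysosome-associated membrane protein of GABAergic terminals, read 9.17, 9.05 and 8.76 in the Tg2576 mice and 9.54, 9.48 and 9.61 in the WT mice. The groups did not overlap, and the WT mice lay close together (log2 fold change -0.55, SE 0.12). Grm4, the presynaptic inhibitory glutamate receptor mGluR4, read 10.81, 10.71 and 10.37 in the Tg2576 mice and 11.32, 11.24 and 11.01 in the WT mice. Tg2576 replicate 3 was lowest and the groups did not overlap (log2 fold change -0.56, SE 0.13). Grm5, the postsynaptic Gq-coupled receptor mGluR5, read 9.45, 9.21 and 8.995 in the Tg2576 mice and 10.06, 9.56 and 9.60 in the WT mice, with Tg2576 replicate 1 closest to the WT mice (log2 fold change -0.52, SE 0.16). Of 21 measured glutamate receptor genes these were the 2 called, 15 lay below 0, and the median was -0.08. No GABA or glycine gene was called among 21, with 9 above and 12 below 0. Gabra5 (-0.27, SE 0.11) and Gabra3 (-0.25, SE 0.12) had the lowest p of that list and did not pass the p limit. The call of Lamp5 ended without Tg2576 replicate 3 (-0.43). The call of Grm4 ended without Tg2576 replicate 3 (-0.43) or WT replicate 1 (-0.50). The call of Grm5 ended without Tg2576 replicate 2 (-0.52), Tg2576 replicate 3 (-0.41) or WT replicate 1 (-0.36). In RNA of a whole bulb, fewer cells of a type and less RNA per cell cannot be told apart.

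Synaptic scaffolds and adhesion molecules lay mostly below 0. Of 47 measured, 35 were below 0, the median was -0.12, 1 was called lower (0.171% of all probesets were) and none higher. Ppfia1, the scaffold liprin-α1 that binds receptor tyrosine phosphatases, read 9.002, 8.96 and 9.04 in the Tg2576 mice and 9.89, 10.10 and 9.09 in the WT mice. WT replicate 3 lay beside the Tg2576 mice, well below the other WT mice (log2 fold change -0.69, SE 0.19). The SD was 0.53 in the WT mice and 0.04 in the Tg2576 mice, while the SE is pooled over both ages. The call of Ppfia1 ended without WT replicate 1 (-0.59) or WT replicate 2 (-0.49). Past the p limit but not the fold limit were the synaptic adhesion molecules Lrfn5 (-0.49, SE 0.12) and Nlgn1 (-0.33, SE 0.11), the membrane adaptor Ank2 (-0.41, SE 0.13) and Fmr1 (-0.43, SE 0.13), the RNA-binding protein of synaptic translation. In Lrfn5 the values were 9.63, 9.39 and 9.54 in the Tg2576 mice and 10.15, 10.11 and 9.78 in the WT mice, with no overlap. Among 40 vesicle release genes, Mctp1, a membrane protein with calcium-binding C2 domains, was called lower, with 8.60, 8.22 and 8.23 in the Tg2576 mice and 9.19, 8.94 and 8.77 in the WT mice (log2 fold change -0.62, SE 0.14). The call of Mctp1 ended without WT replicate 1 (-0.51). Other release genes went both ways and did not pass the fold limit. Napb, which helps to take SNARE complexes apart, was at -0.43, SE 0.13 and the tomosyn Stxbp5l at -0.37, SE 0.12, while the vesicle protein Syt4 was at 0.35, SE 0.11 and the SNARE-associated Snapin at 0.33, SE 0.10. Ion channel genes held no call, with 17 of 31 potassium channels and 21 of 28 sodium and calcium channels below 0. Kcnb2, a delayed rectifier subunit, was past the p limit alone (-0.49, SE 0.13).

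Golgi and endosomal traffic genes lay mostly below 0, and none was called. Of 46 measured, 38 were below 0, the median was -0.14, and 9 passed the p limit with lower values (0.581% of all probesets did) and none with higher values. With the symmetric fold limits 4 of them would be called lower, Rufy1, Clec16a, Vps41 and Trappc10. The list mean was 9.73 to 9.81 in the Tg2576 mice, and the lowest WT mouse, replicate 3, lay just above them at 9.81. Rufy1, an effector of endosomal Rab proteins, read 7.88, 7.71 and 7.91 in the Tg2576 mice and 8.53, 8.32 and 8.07 in the WT mice (log2 fold change -0.47, SE 0.11). Clec16a, a protein of endosomes and mitophagy, read 10.39, 10.47 and 10.18 in the Tg2576 mice and 11.01, 10.72 and 10.68 in the WT mice (log2 fold change -0.46, SE 0.12). Vps41 of the HOPS tethering complex read 9.55, 9.39 and 9.39 in the Tg2576 mice and 10.17, 9.88 and 9.66 in the WT mice (log2 fold change -0.46, SE 0.13). In all 9, which were picked by p on these same values, the groups did not overlap. Nor did they in 16 of the 46 and in 9.96% of all probesets. The other 6 were the COPI coat subunit Copg2 (-0.34, SE 0.09), the Golgi glycoprotein Glg1 (-0.34, SE 0.10), the Golgi calcium and manganese pump Atp2c1 (-0.37, SE 0.12), the TRAPP tether subunit Trappc10 (-0.44, SE 0.14), the Rab exchange factor Dennd4b (-0.32, SE 0.10) and the lipid flippase Atp9a (-0.35, SE 0.12). These 6 and Vps41, like Nlgn1 and Ank2 above, were named after their values were seen. The list itself was drawn up with earlier results of these data known, so its count beside 0.581% is not a test of the list. At 6 months the median of the list was 0.01.

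Of kinase pathways, Mapk10, which encodes the neuronal stress kinase JNK3, was called lower. It read 11.57, 11.46 and 11.44 in the Tg2576 mice and 12.36, 12.14 and 11.62 in the WT mice, and WT replicate 3 was the WT mouse closest to the Tg2576 mice (log2 fold change -0.55, SE 0.15). It was the call among 43 measured Ras and MAPK genes, of which 30 were below 0 with a median of -0.09. Nf1, a GTPase activator for Ras, was past the p limit alone (-0.35, SE 0.11), as was the protein kinase C gene Prkca (-0.39, SE 0.11). Ralgapa2, a GTPase activator for Ral acting in the PI3K and mTOR pathway, read 8.85, 8.82 and 8.75 in the Tg2576 mice and 9.75, 9.29 and 9.04 in the WT mice (log2 fold change -0.56, SE 0.14). In that list of 30, the nutrient-sensing GTPase Rragd (-0.45, SE 0.14) and the AMPK subunit Prkab2 (-0.44, SE 0.13) lay lower and the pro-apoptotic Bad (0.34, SE 0.10) higher, without passing the fold limit. The call of Mapk10 ended without WT replicate 1 (-0.39) or WT replicate 2 (-0.50). The call of Ralgapa2 ended without WT replicate 1 (-0.36). The phosphatase Dusp1, itself induced by activity, was at -0.50, SE 0.11 and the only one of 16 dual specificity phosphatases past the p limit.

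A proteasome activator and a nucleoporin also fell. Psme4, the proteasome activator PA200, read 8.49, 8.23 and 8.64 in the Tg2576 mice and 9.58, 9.003 and 9.03 in the WT mice (log2 fold change -0.76, SE 0.17). All 3 Tg2576 mice lay below all WT mice, and WT replicate 1 was highest. The call of Psme4 held without each of the 6 mice in turn, but ended with the leptomeningeal covariate (-0.56). Ranbp2, a nucleoporin of the cytoplasmic filaments with SUMO ligase activity, read 9.58, 9.29 and 9.41 in the Tg2576 mice and 10.35, 10.03 and 9.82 in the WT mice, and the groups did not overlap (log2 fold change -0.63, SE 0.15). The call of Ranbp2 ended without WT replicate 1 (-0.49). Of 37 nuclear pore and transport genes, 26 were below 0 (median -0.12) and Ranbp2 was the only one past the p limit. Rnf24, a RING finger protein, read 8.08, 8.16 and 7.99 in the Tg2576 mice and 8.91, 8.60 and 8.38 in the WT mice (log2 fold change -0.56, SE 0.15). The call of Rnf24 ended without Tg2576 replicate 3 (-0.51) or WT replicate 1 (-0.42). The ubiquitin ligases Trim24 (-0.41, SE 0.10) and Siah2 (-0.41, SE 0.12) were past the p limit alone.

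Promoters from 250 bases before to 50 after a RefSeq start (build GRCm38.p6) were matched for 68 of 80 genes called higher and 25 of 30 called lower. The letters TGACGT, a core of the site for CREB family factors, were searched on both strands. They were in 7 of the 25 lower genes (28.0%), in 6 of the 68 higher genes (8.82%) and in 9.97% of 15691 promoters of measured genes. With the immediate early genes set aside, 3 of 19 lower genes held them (15.8%, against 9.97% of all promoters). The other lower genes that held them were immediate early genes. With so few genes, the 15.8% is not read as a difference from all promoters. The 3 are shown because they carry neuronal and nuclear genes described above, with the 6 letters in capitals and 10 bases on each side.
Mapk10, chr5:103211348-103211373, minus strand, capitals starting 29 bases before the start: ctctgggcttTGACGTcatgtgtgct
Ranbp2, chr10:58446681-58446706, plus strand, capitals starting 161 bases before the start: gtccgctttgTGACGTagcaccagtg
Mctp1, chr13:76579352-76579377, plus strand, capitals starting 235 bases before the start: tgtccatgtgTGACGTgattctcact
In Mapk10 the next letters, ca, complete a palindrome. The letters ACGTG were in 32.4% of higher, 32.0% of lower and 24.0% of all promoters, and CCAAT in 33.8%, 24.0% and 42.2%. These are matches of letters in a window, and no binding was measured.

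A neighbourhood of C2H2 zinc finger genes on distal chromosome 2 held 2 of the named genes that fell, Gm6710 and Gm14325. Genes of this family commonly encode KRAB repressor proteins and lie in tandem copies. Between Edn3 and Phactr3 in the RefSeq order of GRCm38.p6, 19 probesets carried a gene symbol, 18 had a log2 fold change below 0 and the median was -0.59. Gm6710 read 9.49, 9.54 and 9.60 in the Tg2576 mice and 10.77, 10.62 and 9.69 in the WT mice (log2 fold change -0.82, SE 0.27). Gm14325 read 8.87, 9.08 and 9.11 in the Tg2576 mice and 9.71, 9.82 and 9.29 in the WT mice (log2 fold change -0.59, SE 0.17). In both genes WT replicates 1 and 2 were high, and WT replicate 3 lay just above the Tg2576 mice, so the groups did not overlap. In 18 of the 19 probesets, WT replicates 1 and 2 were both above the other 4 mice. The lowest fold change was that of Gm14305, picked after its values were seen, with 6.96, 6.66 and 6.86 in the Tg2576 mice and 9.18, 9.06 and 6.76 in the WT mice (-1.51, SE 0.60), and it was not called. The mean over the 19 probesets was 8.96, 8.93 and 9.11 in the Tg2576 mice and 10.01, 9.92 and 9.04 in the WT mice. At 6 months it was 9.73, 8.71 and 9.12 in the Tg2576 mice and 8.89, 9.35 and 8.95 in the WT mice, so that 1 mouse of each genotype, Tg2576 replicate 1 and WT replicate 2, was highest. Gm14305 then read 8.55, 6.65 and 6.90 in the Tg2576 mice and 6.68, 8.29 and 6.77 in the WT mice. The call of Gm6710 ended without Tg2576 replicate 1 (-0.79), Tg2576 replicate 2 (-0.82), Tg2576 replicate 3 (-0.85), WT replicate 1 (-0.61) or WT replicate 2 (-0.69). The call of Gm14325 ended without Tg2576 replicate 1 (-0.52), WT replicate 1 (-0.54) or WT replicate 2 (-0.48). The mice carry a C57BL/6/SJL background, and whether they differ in alleles of this region was not tested. Without the neighbourhood, including the probesets whose names come from the study's supplementary annotation, 33 probesets were called lower.

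**Figure D2:**
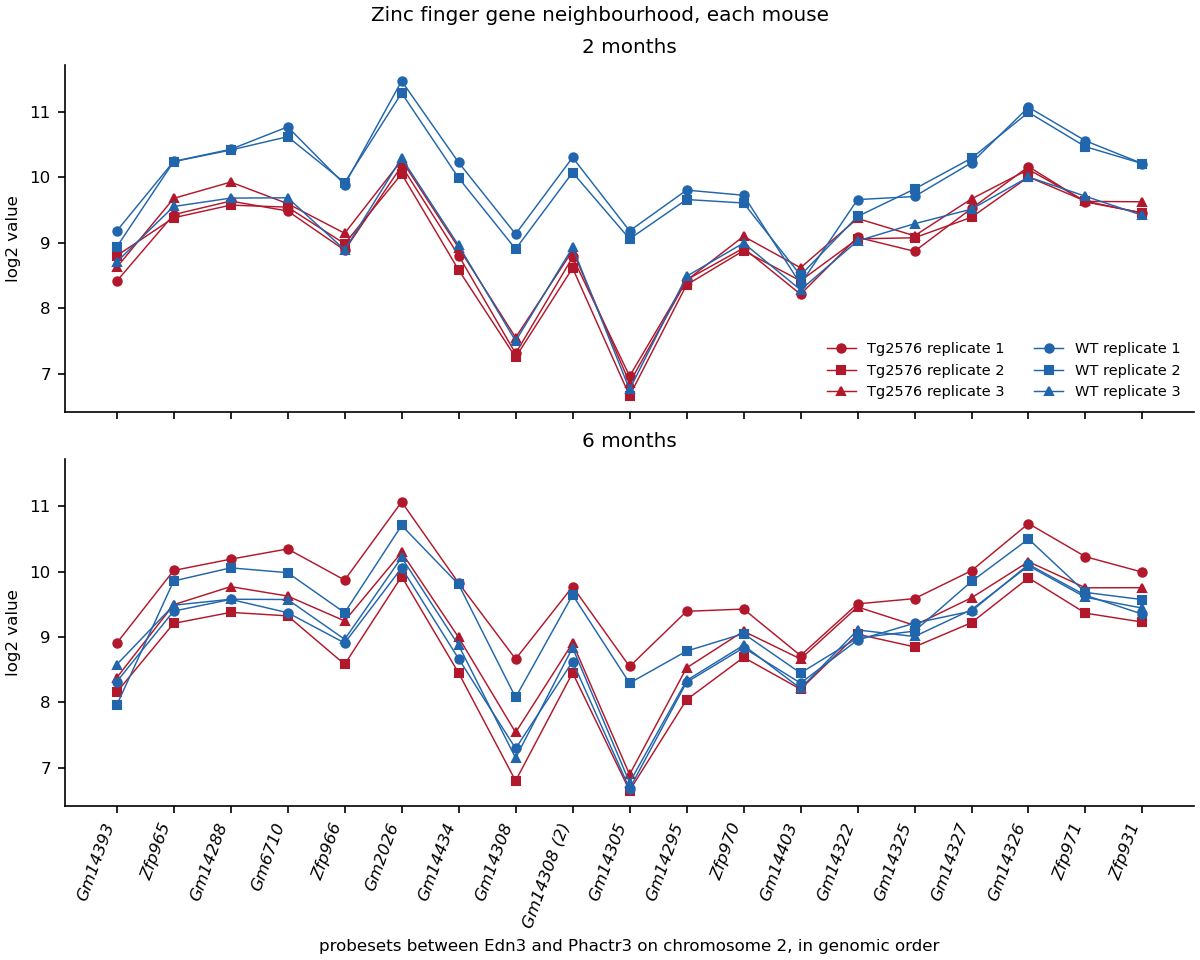
Log2 value (y axis) of the 19 named probesets between Edn3 and Phactr3 in genomic order (x axis), 1 line per mouse, at 2 months (top) and 6 months (bottom), red for Tg2576 and blue for WT. At 2 months WT replicates 1 and 2 lie above the other 4 mice in 18 of the 19 probesets, Gm14403 being the exception, and at 6 months Tg2576 replicate 1 and, over most probesets, WT replicate 2 lie above the rest.

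The promoters of Gm6710 and Gm14325 are shown because they tell how alike these copies are. Over 263 aligned bases without a gap, of 300 in each window, 252 were identical (95.8%). The rest of each window is not shown and is not part of this share. The bases that differ are in capitals.
Gm6710, chr2:175869032-175869294, plus strand: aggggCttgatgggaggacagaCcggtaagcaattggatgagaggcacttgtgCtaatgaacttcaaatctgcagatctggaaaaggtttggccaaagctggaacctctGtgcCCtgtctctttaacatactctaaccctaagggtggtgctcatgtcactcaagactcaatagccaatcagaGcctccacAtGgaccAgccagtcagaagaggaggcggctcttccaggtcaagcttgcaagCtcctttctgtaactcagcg
Gm14325, chr2:177840324-177840586, minus strand: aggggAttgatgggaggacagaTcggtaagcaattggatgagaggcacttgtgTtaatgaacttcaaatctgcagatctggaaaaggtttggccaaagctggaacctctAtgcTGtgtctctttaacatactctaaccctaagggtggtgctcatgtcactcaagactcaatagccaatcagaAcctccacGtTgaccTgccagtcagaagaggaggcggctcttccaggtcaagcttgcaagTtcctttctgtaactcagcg
Some probesets of the neighbourhood held the same value on every array, so the level of a single copy is uncertain.

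Another zinc finger gene, Zfp949, was called lower through 2 of 3 mice. It read 9.60, 8.61 and 8.74 in the Tg2576 mice and 9.78, 9.80 and 9.62 in the WT mice, so Tg2576 replicate 1 lay at the WT level and the other Tg2576 mice well below it (log2 fold change -0.75, SE 0.25). At 6 months the values were 8.94, 8.62 and 9.68 in the Tg2576 mice and 9.69, 9.82 and 9.74 in the WT mice (log2 fold change -0.67, adjusted p = 0.516 in limma), and again 1 Tg2576 mouse, replicate 3, lay at the WT level. The call of Zfp949 ended without Tg2576 replicate 2 (-0.56), Tg2576 replicate 3 (-0.63), WT replicate 1 (-0.72), WT replicate 2 (-0.71) or WT replicate 3 (-0.80). Rgsl1, a member of the regulator of G protein signalling family by sequence, read 7.64, 7.48 and 8.14 in the Tg2576 mice and 8.22, 8.45 and 8.58 in the WT mice (log2 fold change -0.66, SE 0.21). It was also lower at 6 months, with 8.29, 8.49 and 7.59 in the Tg2576 mice and 8.82, 9.17 and 8.89 in the WT mice (log2 fold change -0.84, adjusted p = 0.408 in limma). With the leptomeningeal covariate Rgsl1 was at -0.99. The call of Rgsl1 ended without Tg2576 replicate 1 (-0.60), Tg2576 replicate 2 (-0.52), WT replicate 2 (-0.64) or WT replicate 3 (-0.58). Across 358 measured Zfp genes the median was -0.03 with 1 call.

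Single genes of lipid handling, oxidative defence and hypoxia were among those that rose. Scp2, the sterol carrier and thiolase of peroxisomes, read 8.18, 7.68 and 8.13 in the Tg2576 mice and 7.18, 7.50 and 7.33 in the WT mice (log2 fold change 0.66, SE 0.18). Slc27a2, which activates very long chain fatty acids, read 6.71, 6.54 and 7.02 in the Tg2576 mice and 6.13, 6.39 and 6.11 in the WT mice, with no overlap (log2 fold change 0.54, SE 0.13), but 5 of its 6 values were under the negative control median of their array. Fabp5, a fatty acid binding protein also used as a marker of ensheathing glia, read 9.59, 9.48 and 9.65 in the Tg2576 mice and 8.76, 8.94 and 9.48 in the WT mice (log2 fold change 0.51, SE 0.15). In Fabp5, WT replicate 3 lay beside Tg2576 replicate 2. With the leptomeningeal covariate the values were 0.36 for Scp2, 0.31 for Slc27a2 and 0.26 for Fabp5. Of 43 measured fatty acid genes these 3 were called higher (0.401% of all probesets were) and none lower, and 23 were above 0. The desaturase Fads1 was past the p limit alone (0.34, SE 0.11). The call of Scp2 ended without Tg2576 replicate 1 (0.57), Tg2576 replicate 3 (0.59) or WT replicate 1 (0.58). The call of Slc27a2 held without each of the 6 mice in turn, but ended with the leptomeningeal covariate. The call of Fabp5 ended without Tg2576 replicate 1 (0.51), Tg2576 replicate 3 (0.47), WT replicate 1 (0.36) or WT replicate 2 (0.46). Cholesterol synthesis held no call among 30 genes, with Cyp51 at -0.42, SE 0.14.

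Of 50 measured glutathione and antioxidant genes, 42 were above 0 (median 0.14) and 3 were called higher, none lower. Gstm1, a glutathione transferase, read 10.99, 10.89 and 11.32 in the Tg2576 mice and 10.32, 10.65 and 10.86 in the WT mice (log2 fold change 0.45, SE 0.14). Gpx1, the cytosolic glutathione peroxidase, read 11.45, 11.40 and 11.62 in the Tg2576 mice and 10.69, 10.91 and 11.45 in the WT mice (log2 fold change 0.47, SE 0.15), and WT replicate 3 overlapped with the Tg2576 mice. Oser1, an oxidative stress responsive gene, read 10.34, 10.25 and 10.08 in the Tg2576 mice and 9.92, 9.62 and 9.77 in the WT mice, and did not overlap (log2 fold change 0.46, SE 0.13). The list means were 9.35 to 9.56 in the Tg2576 and 9.22 to 9.34 in the WT mice, with Tg2576 replicate 2 and WT replicate 3 side by side. With the leptomeningeal covariate Gstm1 was at 0.14 and Gpx1 at 0.25, while Oser1 was at 0.49, and none was called. The call of Gstm1 ended without Tg2576 replicate 1 (0.49), Tg2576 replicate 3 (0.33), WT replicate 1 (0.31) or WT replicate 2 (0.47). The call of Gpx1 ended without Tg2576 replicate 1 (0.49), Tg2576 replicate 2 (0.52), Tg2576 replicate 3 (0.41), WT replicate 1 (0.31) or WT replicate 2 (0.42). The call of Oser1 ended without Tg2576 replicate 1 (0.40) or WT replicate 2 (0.38). The lactonase Pon2 was past the p limit alone (0.35, SE 0.12).

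Mitochondrial genes split. Nuclear genes of oxidative phosphorylation were above 0 in 68 of 84, with a median of 0.12 and 1 call, and mitochondrial ribosomal genes in 62 of 76, with a median of 0.12 and none. Cox6a1, a cytochrome c oxidase subunit, read 12.48, 12.35 and 12.58 in the Tg2576 mice and 11.69, 12.02 and 12.40 in the WT mice (log2 fold change 0.44, SE 0.14), and WT replicate 3 lay among the Tg2576 mice. It was at 0.20 with the leptomeningeal covariate. Nuclear-encoded complex I subunits went both ways without a call, Ndufa8 at 0.38, SE 0.11 and Ndufs1 at -0.42, SE 0.12, and Uqcrc1 of complex III was at -0.31, SE 0.10. Chchd5, a small protein of the intermembrane space, rose, with 7.97, 7.76 and 7.96 in the Tg2576 mice and 7.46, 7.41 and 7.60 in the WT mice (log2 fold change 0.41, SE 0.10). Spg7, the paraplegin subunit of the inner membrane m-AAA protease, fell, with 7.63, 7.31 and 7.55 in the Tg2576 mice and 8.60, 8.45 and 7.58 in the WT mice (log2 fold change -0.71, SE 0.22). Here WT replicate 3 overlapped with the Tg2576 mice and the other WT mice were far above it. The call of Cox6a1 ended without Tg2576 replicate 1 (0.43), Tg2576 replicate 3 (0.38), WT replicate 1 (0.26) or WT replicate 2 (0.43). The call of Chchd5 ended without Tg2576 replicate 1 (0.37), Tg2576 replicate 3 (0.38) or WT replicate 2 (0.36). The call of Spg7 ended without Tg2576 replicate 2 (-0.62), Tg2576 replicate 3 (-0.73), WT replicate 1 (-0.51) or WT replicate 2 (-0.59). The aspartate and glutamate carrier Slc25a12 (-0.40, SE 0.12) and the outer membrane import subunit Mtx2 (-0.38, SE 0.12) were past the p limit alone.

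Of 34 hypoxia and glycolysis genes, 2 were called higher (0.401% of all probesets were), 20 were above and 14 below 0, and the median was 0.04. Ndrg1, a hypoxia and stress responsive gene of glia, read 10.64, 10.52 and 10.88 in the Tg2576 mice and 9.76, 10.02 and 10.31 in the WT mice (log2 fold change 0.65, SE 0.16), a 1.57-fold rise with no overlap. Hif3a, an inhibitory relative of the hypoxia-inducible factors, read 8.50, 8.56 and 8.33 in the Tg2576 mice and 7.77, 8.01 and 8.19 in the WT mice (log2 fold change 0.48, SE 0.13). It was also higher at 6 months (log2 fold change 0.55, adjusted p = 0.408 in limma). The small heat shock protein Hspb1 was tightly spread, with 8.47, 8.46 and 8.50 in the Tg2576 mice and 7.98, 7.91 and 8.18 in the WT mice (log2 fold change 0.45, SE 0.11), and was the call among 39 chaperone genes. In the cell death list of 33, the cell cycle inhibitor Cdkn2d (0.46, SE 0.13) and the paracaspase Malt1 (0.40, SE 0.11) rose. Cdkn2d was at 0.26 with the leptomeningeal covariate. The NF-κB subunit Rel was at -0.44, SE 0.09 and did not pass the fold limit. The call of Ndrg1 held without each of the 6 mice in turn, but ended with the leptomeningeal covariate (0.53). The call of Hif3a ended without Tg2576 replicate 1 (0.46), Tg2576 replicate 2 (0.43) or WT replicate 1 (0.37). The call of Hspb1 held without each of the 6 mice in turn and with the leptomeningeal covariate (0.51). The call of Cdkn2d ended without Tg2576 replicate 1 (0.43) or WT replicate 1 (0.32). The call of Malt1 ended without WT replicate 1 (0.34).

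Glial markers lay mostly above 0. Of 17 oligodendrocyte markers, 14 were above 0, the median was 0.12 and 3 were called higher. The myelin protein Mobp read 9.46, 9.15 and 9.44 in the Tg2576 mice and 8.76, 8.89 and 9.04 in the WT mice (log2 fold change 0.46, SE 0.14). Pllp, a proteolipid of myelin membranes, read 7.42, 7.35 and 7.48 in the Tg2576 mice and 7.24, 6.94 and 6.85 in the WT mice (log2 fold change 0.41, SE 0.13). In Tmem88b the groups overlapped, with 8.66, 8.17 and 8.53 in the Tg2576 mice and 7.89, 8.27 and 7.68 in the WT mice (log2 fold change 0.51, SE 0.16). The abundant myelin gene Mbp was not called. Of 19 astrocyte markers, 14 were above 0 (median 0.17), and the connexin 30 gene Gjb6 rose, with 9.12, 9.12 and 9.21 in the Tg2576 mice and 8.60, 8.80 and 8.91 in the WT mice (log2 fold change 0.38, SE 0.12). The Wnt receptor ligand Ndp (0.33, SE 0.09) and the oligodendrocyte precursor gene Sox8 (0.33, SE 0.10) were past the p limit alone. Microglia held no call, with 15 of 19 markers above 0, and C1qa at 0.43, SE 0.15. Ramp2, the partner of the adrenomedullin receptor in endothelium, rose, with 8.57, 8.54 and 8.93 in the Tg2576 mice and 7.72, 8.12 and 8.42 in the WT mice (log2 fold change 0.60, SE 0.17), while 10 of 17 endothelial markers were below 0. Ramp2 was at 0.39 with the leptomeningeal covariate. Of 12 mural markers, 8 were above 0 (median 0.13) and none was called, while the smooth muscle myosin Myh11 was at -0.36, SE 0.10. The call of Mobp ended without Tg2576 replicate 1 (0.40), Tg2576 replicate 3 (0.41), WT replicate 1 (0.39) or WT replicate 2 (0.45). The call of Pllp ended without Tg2576 replicate 1 (0.40), Tg2576 replicate 3 (0.37), WT replicate 2 (0.37) or WT replicate 3 (0.33). The call of Tmem88b ended without Tg2576 replicate 1 (0.41), Tg2576 replicate 3 (0.47), WT replicate 1 (0.48) or WT replicate 3 (0.38). The call of Gjb6 ended without Tg2576 replicate 1 (0.39), Tg2576 replicate 2 (0.40), Tg2576 replicate 3 (0.35), WT replicate 1 (0.30) or WT replicate 2 (0.39). The call of Ramp2 ended without Tg2576 replicate 3 (0.47) or WT replicate 1 (0.41).

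**Figure D3:**
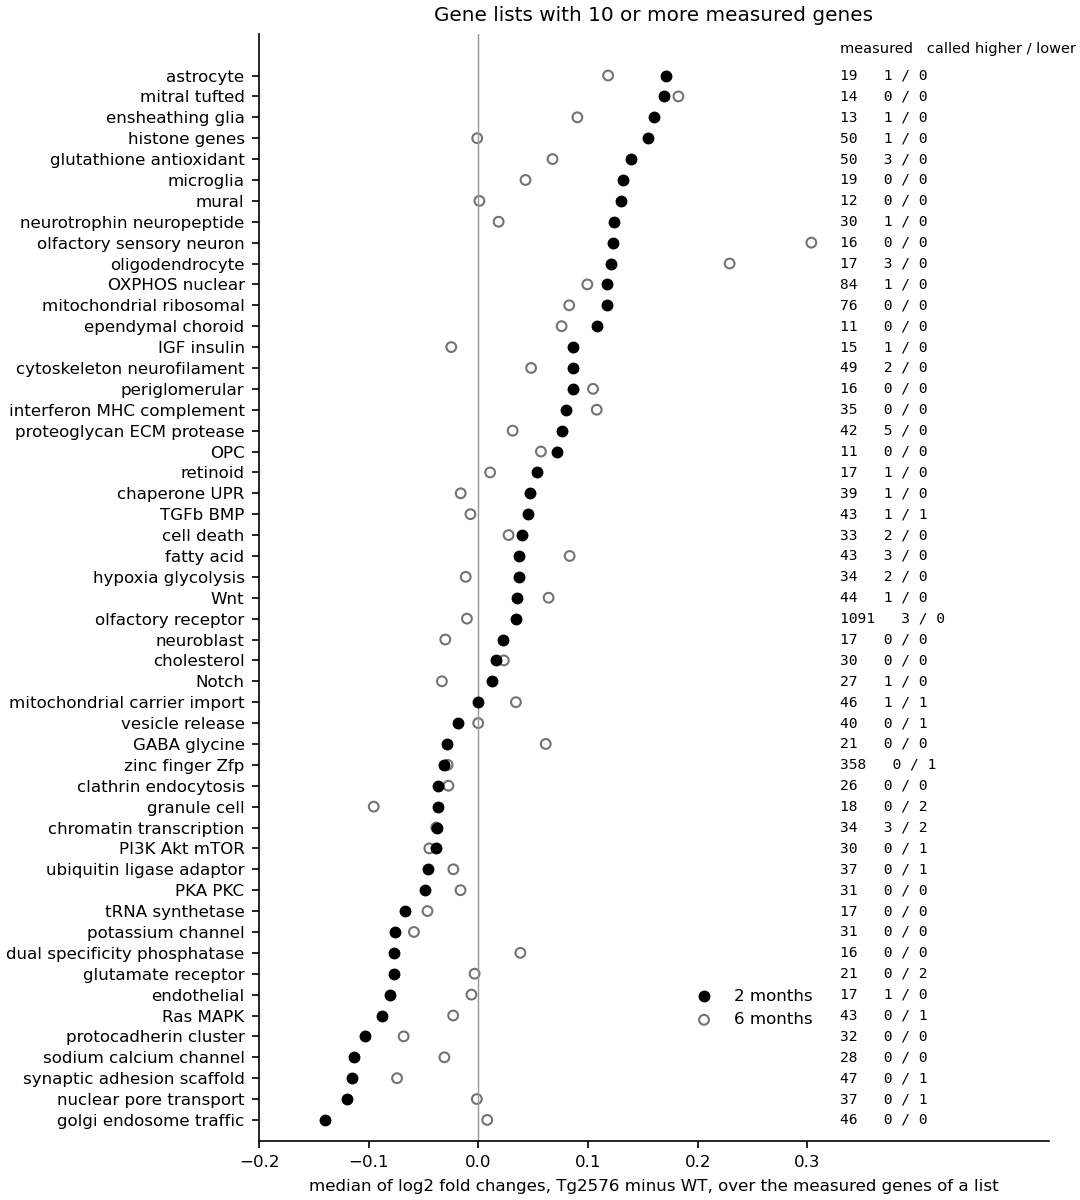
Median log2 fold change of Tg2576 minus WT (x axis) over the measured genes of each list with 10 or more (y axis, without the immediate early, leptomeningeal and ribosomal lists), filled circles at 2 months and open circles at 6 months. Numbers at the right are the genes measured and those called higher and lower at 2 months. The Golgi and endosomal list is lowest at -0.14 and the astrocyte list highest at 0.17.

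Of 42 extracellular matrix genes 5 were called higher (0.401% of all probesets were) and none lower, with 28 above and 14 below 0, a median of 0.08 and a lowest value of -0.72. Sdc4, a heparan sulfate proteoglycan of the cell surface, read 9.11, 9.08 and 9.33 in the Tg2576 mice and 8.39, 8.63 and 8.83 in the WT mice (log2 fold change 0.56, SE 0.13). Timp3, a metalloprotease inhibitor bound to matrix, read 8.65, 8.64 and 8.88 in the Tg2576 mice and 8.12, 8.33 and 8.47 in the WT mice (log2 fold change 0.42, SE 0.11). Both had no overlap between the groups. Cpxm1, a carboxypeptidase-like protein (0.45, SE 0.15), Egflam, the dystroglycan ligand pikachurin (0.43, SE 0.14), and the basement membrane peroxidase Pxdn (0.39, SE 0.10) rose as well, and Pxdn was named after its values were seen. This list too was drawn up with earlier results of these data known, so its count beside 0.401% is not a test of the list. The leptomeningeal markers given above were higher in the same mice. With these as a covariate none of the 5 was called, and the log2 fold changes were 0.45 for Sdc4, 0.22 for Timp3, 0.33 for Cpxm1, 0.30 for Egflam and 0.29 for Pxdn. Lgals1 (0.84, SE 0.25), a galectin, and Anxa2 (0.68, SE 0.20), a membrane-binding annexin, had their highest value in Tg2576 replicate 3, which also had the highest leptomeningeal mean, and with the covariate they were at 0.29 and 0.33. The call of Sdc4 held without each of the 6 mice in turn. The call of Timp3 ended without Tg2576 replicate 3 (0.34) or WT replicate 1 (0.32). The call of Cpxm1 ended without Tg2576 replicate 2 (0.48), Tg2576 replicate 3 (0.29), WT replicate 1 (0.45), WT replicate 2 (0.47) or WT replicate 3 (0.45). The call of Egflam ended without Tg2576 replicate 1 (0.35), Tg2576 replicate 3 (0.46) or WT replicate 1 (0.31). The call of Pxdn ended without WT replicate 1 (0.30). The call of Lgals1 ended without Tg2576 replicate 3 (0.50) or WT replicate 1 (0.59). The call of Anxa2 ended without Tg2576 replicate 3 (0.49) or WT replicate 1 (0.44).

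Developmental signalling changed in single members. Lfng, the glycosyltransferase that tunes Notch, read 8.22, 7.89 and 7.85 in the Tg2576 mice and 7.31, 7.36 and 7.63 in the WT mice (log2 fold change 0.55, SE 0.13), and was the call among 27 Notch genes. Sfrp4, a secreted Wnt antagonist, rose (0.54, SE 0.14), and the Wnt co-receptor Lrp6 was at -0.41, SE 0.13. In the TGF-β and BMP list of 43, Acvr1, the BMP type I receptor ALK2, fell, with 8.40, 8.37 and 8.10 in the Tg2576 mice and 9.49, 9.05 and 8.41 in the WT mice (log2 fold change -0.69, SE 0.20). WT replicate 3 lay beside Tg2576 replicate 1, and the other WT mice were higher. With the leptomeningeal covariate Acvr1 was at -0.39. Gdf10, a BMP-related ligand near background, rose with overlap (7.13, 6.88 and 6.59 in the Tg2576 mice and 6.34, 6.17 and 6.67 in the WT mice; 0.47, SE 0.14), and the BMP target Id2 was at 0.36, SE 0.09. Crabp1, which binds retinoic acid in the cytosol, read 8.17, 8.36 and 8.58 in the Tg2576 mice and 7.72, 7.79 and 7.78 in the WT mice (log2 fold change 0.61, SE 0.16). Ntrk3, the neurotrophin-3 receptor TrkC, read 11.35, 11.24 and 11.22 in the Tg2576 mice and 10.68, 10.81 and 11.12 in the WT mice (log2 fold change 0.41, SE 0.11), and WT replicate 3 was the WT mouse closest to the Tg2576 mice. The call of Lfng held without each of the 6 mice in turn, but ended with the leptomeningeal covariate (0.50). The call of Sfrp4 ended without Tg2576 replicate 3 (0.40). The call of Acvr1 ended without Tg2576 replicate 3 (-0.60), WT replicate 1 (-0.44) or WT replicate 2 (-0.66). The call of Gdf10 ended without Tg2576 replicate 1 (0.34), Tg2576 replicate 2 (0.47), WT replicate 1 (0.45) or WT replicate 2 (0.36). The call of Crabp1 ended without Tg2576 replicate 3 (0.50). The call of Ntrk3 ended without Tg2576 replicate 1 (0.37), WT replicate 1 (0.31) or WT replicate 2 (0.38).

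A pair of neuronal cytoskeleton genes rose. Nefm, the medium neurofilament subunit, read 9.61, 9.69 and 9.43 in the Tg2576 mice and 8.64, 9.36 and 9.18 in the WT mice (log2 fold change 0.51, SE 0.15). Stmn2, a tubulin-binding protein of growing axons, read 9.82, 9.54 and 9.69 in the Tg2576 mice and 9.17, 9.39 and 9.36 in the WT mice (log2 fold change 0.38, SE 0.11). Of 49 cytoskeletal genes 35 were above 0. The related Stmn4 (0.37, SE 0.10) and the focal adhesion protein Lpp (0.37, SE 0.09) were past the p limit with higher values, and the nuclear envelope genes Lmnb2 (-0.33, SE 0.11) and Syne1 (-0.30, SE 0.10) with lower values. At 6 months Stmn2 was again higher (log2 fold change 0.42, adjusted p = 0.408 in limma). The call of Nefm ended without Tg2576 replicate 1 (0.50), Tg2576 replicate 2 (0.46) or WT replicate 1 (0.30). The call of Stmn2 ended without Tg2576 replicate 1 (0.31), Tg2576 replicate 3 (0.37) or WT replicate 1 (0.31). Clustered protocadherins, which mark neurons by their combinations, lay below 0 in 27 of 32 (median -0.10), with Pcdhb20 past the p limit alone (-0.44, SE 0.11).

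Chromatin and transcription genes went both ways, with 3 higher and 2 lower calls among 34 (0.401% and 0.171% of all probesets). The remodelling subunit Ino80b (0.42, SE 0.13), the TFIID-related Taf9b (0.43, SE 0.13) and the CGG repeat binding protein Cggbp1 (0.43, SE 0.12) rose. Gmeb2, which binds glucocorticoid modulatory elements, read 8.05, 7.73 and 7.36 in the Tg2576 mice and 8.45, 8.27 and 8.06 in the WT mice (log2 fold change -0.55, SE 0.15), and Tg2576 replicate 1 lay beside WT replicate 3. Ankrd17, an ankyrin repeat protein, fell (-0.51, SE 0.15). Histone genes were above 0 in 45 of 50 (median 0.15), with H2bc7 called higher (8.90, 9.13 and 9.15 in the Tg2576 mice and 8.29, 8.69 and 8.78 in the WT mice; 0.47, SE 0.15). With the leptomeningeal covariate Gmeb2 was at -0.26, Ankrd17 at -0.29, Cggbp1 at 0.28 and H2bc7 at 0.29. The call of Ino80b ended without Tg2576 replicate 1 (0.38), Tg2576 replicate 3 (0.40), WT replicate 1 (0.33) or WT replicate 2 (0.38). The call of Taf9b ended without Tg2576 replicate 1 (0.39), Tg2576 replicate 2 (0.42) or WT replicate 1 (0.27). The call of Cggbp1 ended without Tg2576 replicate 1 (0.39) or WT replicate 1 (0.28). The call of Gmeb2 ended without Tg2576 replicate 3 (-0.37) or WT replicate 1 (-0.45). The call of Ankrd17 ended without Tg2576 replicate 2 (-0.49), Tg2576 replicate 3 (-0.49) or WT replicate 1 (-0.31). The call of H2bc7 ended without Tg2576 replicate 2 (0.44), Tg2576 replicate 3 (0.43), WT replicate 1 (0.32) or WT replicate 2 (0.52).

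Odorant receptor genes are expressed by sensory neurons of the epithelium, whose axons carry some of their RNA into the bulb. Of 1091 measured, 3 were called higher (0.401% of all probesets were). Olfr342 read 5.18, 5.07 and 5.48 in the Tg2576 mice and 4.73, 4.67 and 4.49 in the WT mice (log2 fold change 0.62, SE 0.14), Olfr965 was at 0.56, SE 0.16 and Olfr745 at 0.51, SE 0.15. All values of these 3 were under the median of the negative control probesets, which was 6.85 to 7.14 on the 6 arrays. Of 16 olfactory sensory neuron genes 15 were above 0 and none was called, and their mean was 8.90 to 9.82 in the Tg2576 and 8.94 to 9.18 in the WT mice. Also dim were Bpifa2, a secreted lipid-binding protein that was high mainly in Tg2576 replicate 2 (6.51, 7.65 and 6.82 in the Tg2576 mice and 6.34, 6.31 and 6.39 in the WT mice; 0.65, SE 0.20), and the protease inhibitor A2ml1 (7.37, 6.87 and 7.41 in the Tg2576 mice and 6.73, 6.26 and 6.78 in the WT mice; 0.62, SE 0.18). The uncharacterized 1110032A03Rik (0.67, SE 0.17) and 9630028B13Rik (0.61, SE 0.18) complete the 15 highest. With the leptomeningeal covariate 1110032A03Rik was at 0.34 and Olfr965 at 0.33. The call of Olfr342 held without each of the 6 mice in turn, but ended with the leptomeningeal covariate (0.54). The call of Olfr965 ended without Tg2576 replicate 1 (0.51), Tg2576 replicate 3 (0.53), WT replicate 1 (0.45) or WT replicate 2 (0.50). The call of Olfr745 ended without Tg2576 replicate 1 (0.33), WT replicate 2 (0.51) or WT replicate 3 (0.46). The call of Bpifa2 ended without Tg2576 replicate 2 (0.32), WT replicate 1 (0.64), WT replicate 2 (0.63) or WT replicate 3 (0.67). The call of A2ml1 ended without Tg2576 replicate 1 (0.55), Tg2576 replicate 3 (0.53) or WT replicate 2 (0.46). The call of 1110032A03Rik ended without WT replicate 1 (0.58). The call of 9630028B13Rik ended without Tg2576 replicate 1 (0.46), WT replicate 1 (0.55) or WT replicate 3 (0.57).

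The other cell types of the bulb held no call. Mitral and tufted markers were above 0 in 10 of 14 (median 0.17), with Uchl1 at 0.26, SE 0.13 and Eomes at 0.21, SE 0.12. Neuroblast markers were above 0 in 12 of 17, with Prokr2 at 0.26, SE 0.10 and Cd24a at 0.29, SE 0.11. Periglomerular markers were above 0 in 11 of 16, and Nr4a2, also an activity-responsive gene, was at -0.44, SE 0.14. Ependymal and choroid plexus genes were above 0 in 7 of 11, and the 2 erythroid genes measured, Slc4a1 and Alas2, were at -0.07 and -0.01. The interferon, MHC and complement list of 35 held none, with the chemokine Ccl24 at 0.34, SE 0.10 and the interferon-γ receptor subunit Ifngr2 at 0.34, SE 0.10. Nor did the 26 endocytosis genes, with the clathrin uncoating kinase Gak at -0.28, SE 0.09, or the 17 tRNA synthetases, with Lars at -0.41, SE 0.13.

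Gene length differed between the calls. The median genomic length was 9.09 kb in 80 genes called higher, 44.3 kb in 30 called lower and 17.8 kb in all 19505. With genes split by length into 10 bins of equal size, the median log2 fold change was 0.03 in the shortest bin and -0.03 in the longest. Within single mice the pattern did not follow genotype. In the longest bin the median deviation was 0.03, -0.03 and -0.05 in the Tg2576 mice and 0.04, 0.03 and -0.03 in the WT mice, so that Tg2576 replicate 1 went with WT replicates 1 and 2 and WT replicate 3 with the other Tg2576 mice. Its part in the calls was not tested.

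**Figure D4:**
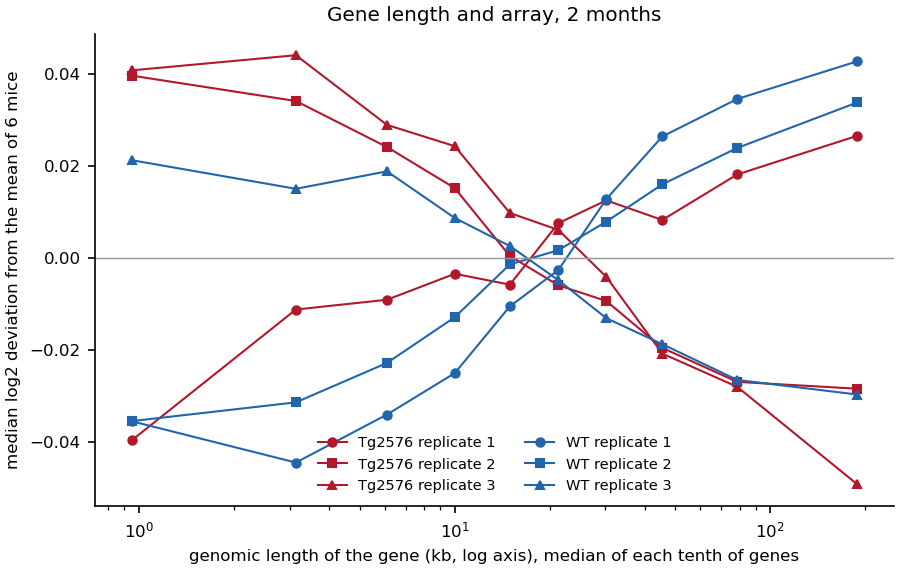
Median log2 deviation of each 2-month mouse from the mean of the 6 mice (y axis) over 10 bins of genes by genomic length in kb (x axis, log scale), red for Tg2576 and blue for WT. In the longest bin, Tg2576 replicate 1 and WT replicates 1 and 2 lie above 0 and the other 3 mice below.

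The calls were set beside the 6-month mice, which share no array with those of 2 months. Of the 89 probesets called higher, 71 were above 0 at 6 months (79.8%, against 51.8% of all probesets), and their median went from 0.46 to 0.12. Of the 38 called lower, 25 were below 0 (65.8%, against 48.2%), and their median went from -0.64 to -0.19. The calls were picked by size at 2 months, which favours medians nearer 0 at 6 months. At 6 months 3 of the higher and 6 of the lower passed the p limit in the same direction, and none in the opposite direction. Among genes described here these were Hif3a, Stmn2, Rgsl1 and Grm4 (log2 fold change -0.44, adjusted p = 0.453 in limma). The difference between ages passed the p limit in 173 probesets (0.779%), none of which passed adjustment in limma (lowest adjusted p 0.842), and 1268 had an unadjusted p under 0.05.

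**Figure D5:**
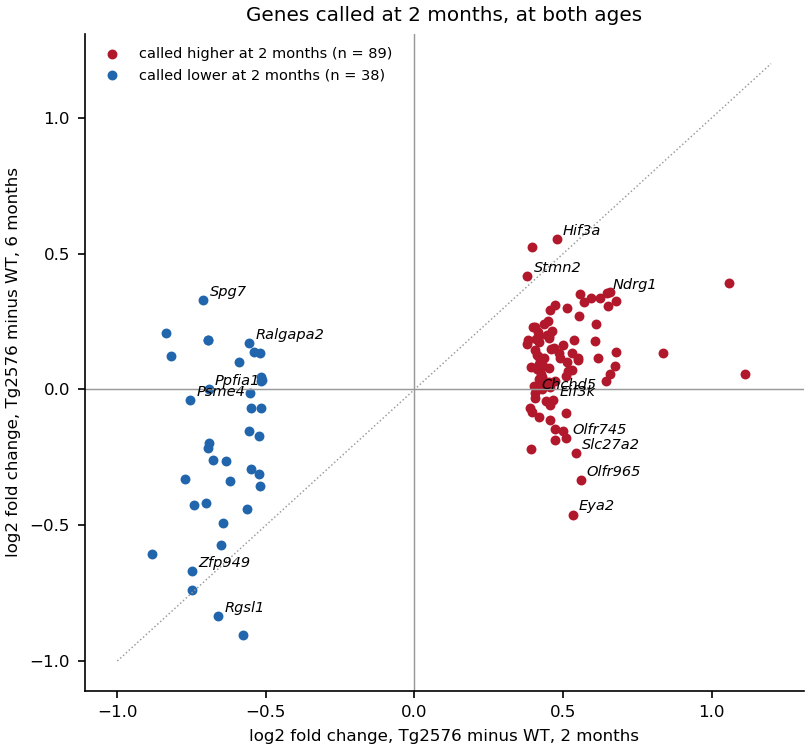
Log2 fold change of Tg2576 minus WT at 2 months (x axis) and 6 months (y axis) for the 127 probesets called at 2 months, red for higher and blue for lower, with equality as a dotted line. Hif3a, Stmn2 and Rgsl1 lie near or beyond the line, whereas Spg7, Slc27a2 and Eya2 have opposite signs at the 2 ages.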

How the data were processed

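OB RNA was amplified and hybridized by the authors to Mouse Clariom S arrays, 1 mouse each. The deposited values are log2 intensities that the authors made by RMA, which brings all arrays to 1 distribution, so that a change shared by most genes would not be seen. From them, 22206 gene probesets were fitted with limma 3.58.1 (R 4.3.3) to 4 group means over 12 arrays, and 6923 control probesets were left out. Calls used an unadjusted p under 0.01 and a fold above 1.3 or below 0.7, with Benjamini-Hochberg adjustment beside them. Of the probesets, 19572 carry 1 symbol and 2634 none in the platform annotation. A gene was represented by its brightest probeset. Members, 57 lists and tests were chosen with earlier results of these data and the study's supplementary table known. Named are 15 genes per direction with the largest change and no overlap outside the 3 lists set aside, up to 4 called and 2 further members per list and direction past the p limit, or 2 with the lowest p as values, and App. The fit was tested on simulated data. Labels do not say that mice came from separate litters. The p-values rest on a spread between mice that limma moderates and pools over the 4 groups, not on that of the 2-month mice alone. Array order and group cannot be told apart. Promoters were compared with Biopython 1.88 and plots drawn with matplotlib 3.10.9.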

Additional observations from a re-analysis of the deposited data

Results flagged for a closer look

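In 14 genes described here, the Tg2576 against WT difference changed between 2 and 6 months at an unadjusted p under 0.01 in limma. None passed adjustment (adjusted p 0.842 in each), and 0.779% of all probesets passed the p limit. The genes described were picked by their difference at 2 months, which is part of this contrast. That choice favours a smaller or turned difference at 6 months, so the count of 14 is not a test of change with age. Values are the 6-month minus the 2-month log2 fold change. Below 0 at 2 months and higher at 6 months were the values of Spg7 (1.04), Clec16a (0.74), Ralgapa2 (0.73), Vps41 (0.56), Napb (0.55), Dennd4b (0.50) and Copg2 (0.43). Above 0 at 2 months and lower at 6 months were those of Eya2 (-0.99), Olfr965 (-0.89), Slc27a2 (-0.78), Olfr745 (-0.69), the translation initiation subunit Eif3k (-0.51), Ccl24 (-0.46) and Chchd5 (-0.42). In Clec16a the groups at 6 months read 10.70, 10.58 and 10.56 in the Tg2576 mice and 10.43, 10.13 and 10.44 in the WT mice, with the order of the genotypes turned. In Spg7 they read 7.67, 7.80 and 7.55 in the Tg2576 mice and 7.55, 7.02 and 7.47 in the WT mice. Eya2, a transcriptional coactivator with phosphatase activity, went from 0.53 to -0.46. Olfr965 and Olfr745 lay under the negative control median on all 12 arrays and Slc27a2 on 11 of 12, so their values compare signals near background. Eya2 and Eif3k were chosen after their values were seen.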

How the results depend on the processing

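The counts of 89 higher and 38 lower probesets ranged from 32 to 392 and from 19 to 196 when 1 mouse was left out. Array weights gave 185 and 94, the leptomeningeal covariate 45 and 18, and no fold limit 142 and 129. Symmetric fold limits gave 90 lower. The replicate number as a block gave 115 and 42, and ended 11 of 61 calls of named genes; the numbers do not pair the mice (same-number correlations 0.18, -0.22 and 0.01). The 6 arrays alone, another prior, median centring, cyclic loess, a filter on dim probesets, leaving out the zinc finger neighbourhood and leaving out 2 arrays of 6 months (the last of these chosen after seeing the data, as was the neighbourhood) kept both counts within 1.5 times. None of the 15 refits reversed any of the 127 called probesets that had a value in it (86 with the filter on dim probesets). These probesets were picked by the size of the same differences, so few reversals could arise and their absence is not support for the calls. Of the 61 calls, the covariate ended 54, the 6 arrays alone 14, and 8 held without each mouse in turn. Among those 8, only Hspb1 also kept its call with the covariate. The cause was not tested. Precision is limited by the 3 arrays in each group.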

Other observations

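Among called probesets without a symbol in the platform annotation, named here from the study's supplementary annotation, ND3, a mitochondrially encoded complex I subunit, read 11.35, 11.26 and 11.75 in the Tg2576 mice and 10.46, 10.69 and 11.17 in the WT mice (log2 fold change 0.68). Tekt5, a filament protein of cilia and flagella, read 7.81, 7.72 and 7.61 in the Tg2576 mice and 7.02, 7.04 and 7.37 in the WT mice (log2 fold change 0.57). Duxbl2, a homeobox gene, read 8.15, 7.83 and 7.85 in the Tg2576 mice and 8.54, 8.75 and 8.17 in the WT mice (log2 fold change -0.54). These 3 were chosen after their values were seen.

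Leaving out WT replicate 3 gave 21 probesets at an adjusted p under 0.05 in limma, of which 15 are among the calls on all mice. In all 21 the value of WT replicate 3 was nearer to a Tg2576 mouse than to either other WT mouse. The 21 were picked by leaving that mouse out, which favours such probesets, so this count is not separate evidence about it. They include Ppfia1, Acvr1, Mapk10, Gpx1, Fabp5, Spg7 and Zkscan3.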
